A study of Arabidopsis thaliana with 6 samples.

Results

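The Aux/IAA and GH3 families of the model plant Arabidopsis thaliana were followed here in old root. The set was fixed by gene identifier and holds 34 of the 32833 genes in the count files, namely the 29 Aux/IAA genes and 5 GH3 genes of group II. The 2 groups were the wild type, WT (Col), and the line labelled myb68 myb84, both untreated. Plants grew in vitro on MS medium in steady light at 22 °C, and at 18 days the uppermost 2 cm of each main root was collected. There were 3 biological replicates per genotype, each a pool of at least 40 plants. The sources used here do not describe the mutant alleles, so transcript levels of the mutated genes cannot check these labels. The series' design text writes MYB86 at 1 point where the labels have myb84, and the labels were followed. MYB84 was at 9.92 ± 2.69 CPM in WT and 6.0 ± 1.14 in the mutant (SD, n = 3; adjusted p = 0.0442 in edgeR, a call that ended without WT 1, WT 3, myb68 myb84 1 or myb68 myb84 2 and in limma-voom), and MYB68 at 53.7 ± 7.42 and 67.8 ± 7.03 CPM (adjusted p = 0.0613 in edgeR, 0.0319 in DESeq2 and 0.0452 in limma-voom, so the latter pair of tests called it higher). CPM are read counts per 1000000, after TMM scaling between libraries.

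Aux/IAA proteins are short-lived nuclear repressors. They bind auxin response factors (ARFs) on DNA and recruit TOPLESS corepressors through a leucine-rich motif. Auxin acts as a glue between a degron in the Aux/IAA protein and an F-box receptor, TIR1 or an AFB, so that the repressor is ubiquitinated and destroyed and the ARF is freed. Many Aux/IAA and GH3 genes are themselves induced by this response, which makes them common readouts of auxin signalling. Group II GH3 enzymes join indole-3-acetic acid to amino acids and so close a feedback loop that lowers free auxin. In old root, auxin acts in the cambium, in the cork cambium and in lateral root formation.

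The degron divided the Aux/IAA family. In translations of the RefSeq coding sequences (TAIR10.1), the core Gly-Trp-Pro-Pro followed by Val or Ile was found in 22 of the 29 proteins. IAA10, IAA20, IAA30, IAA31, IAA32, IAA33 and IAA34 lacked it. IAA10 has another residue after Gly-Trp-Pro-Pro, and counting it gives 23 proteins. A pattern of 3 alternating leucines, as in the corepressor-binding motif, was found anywhere in the protein in 28 of the 29, with IAA33 as the exception. The position of the match was not checked, so it need not be that motif. The coding DNA of the degron is shown for the 3 most abundant members, IAA9, IAA16 and IAA27, for the 2 members called changed, IAA7 and IAA28, and for IAA10 and IAA31, whose sites depart from the core. Capitals mark the 5 codons of the core, or of the aligned site in IAA10 and IAA31, and all are read 5′ to 3′ on the coding strand.
IAA9 (chr5:26255101-26255139, plus strand): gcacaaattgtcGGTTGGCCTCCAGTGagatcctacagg
IAA16 (chr3:1289724-1289762, minus strand): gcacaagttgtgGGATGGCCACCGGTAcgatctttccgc
IAA27 (chr4:14324648-14324686, minus strand): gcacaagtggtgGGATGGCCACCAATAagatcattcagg
IAA7 (chr3:8195565-8195603, plus strand): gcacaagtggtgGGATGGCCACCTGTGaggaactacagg
IAA28 (chr5:9033809-9033847, plus strand): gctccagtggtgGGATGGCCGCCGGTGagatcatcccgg
IAA10 (chr1:1060325-1060363, plus strand): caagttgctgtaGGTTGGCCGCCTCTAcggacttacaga
IAA31 (chr3:6020779-6020817, minus strand): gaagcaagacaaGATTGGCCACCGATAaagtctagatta

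In these libraries 27 of the 34 members were expressed, taken as at least 1 CPM in all 3 libraries of a genotype. The same 27 met this in both genotypes. They were 22 Aux/IAA genes and all 5 GH3 members. The 7 below it were IAA5, IAA6, IAA15, IAA20, IAA29, IAA32 and IAA33. IAA15 had 0 counts in wild type, so it was not detected there at this depth, and 2 counts in 1 mutant library, myb68 myb84 3. A count of 0 allows up to 3 where counts are independent. Total counts ran from 19446419 to 55907128 per library, which on that basis puts the limit of a count of 0 at 0.0537 to 0.154 CPM. Most counts of the members below the threshold were even numbers, such as 16, 8 and 6 for IAA6 in WT 1, 2 and 3. Whether both reads of a pair were counted was not tested, and if they were, these limits are too low.

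Levels were spread over several orders of magnitude, and a few repressors held most of the family's transcripts. Genes are compared here per length, as CPM per kb of exon. IAA9 (AT5G65670) was highest at 220 ± 12.2 CPM per kb in wild type (SD, n = 3) and 233 ± 8.29 in myb68 myb84. It lies at chromosome 5, 26253408 to 26256544, and 44 bases of its model overlap a gene on the opposite strand. IAA16 (AT3G04730), at chromosome 3, 1288155 to 1290891, followed at 189 ± 12.5 CPM per kb in wild type, and IAA27 (PAP2, AT4G29080) at 118 ± 17.7. The lowest wild-type library of IAA9 (213) lay above the highest of IAA16 (203), and the same held between IAA16 and IAA27 (181 against 134). Such comparisons between genes do not cover an error in exon length, which all libraries share. The next places were held by IAA2 at 85.6 ± 11.3, IAA17 (AXR3), known from auxin-resistant alleles, at 72.7 ± 4.68, IAA28 at 66.2 ± 7.52, IAA8 at 65.4 ± 2.43 and IAA26 (PAP1) at 61.2 ± 5.06. From IAA2 down to IAA4 (51.6 ± 5.3), each gene's wild-type libraries overlapped those of the next, so the order within this stretch is not set by these data.

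The 5 highest members in wild type, IAA9, IAA16, IAA27, IAA2 and IAA17, together held 62.2% to 64.4% of the summed Aux/IAA level per kb in the 6 libraries. IAA9 alone held 20.5% ± 0.337 in wild type and 21.0% ± 0.565 in the mutant. In myb68 myb84 the fifth place was held by IAA28, at 88 ± 8.17 CPM per kb against 72.8 ± 5.25 for IAA17. In wild type 14 Aux/IAA genes stood above the median level per kb of the 20941 tested genes. IAA9 was at the 98.3rd percentile of those genes and IAA16 at the 97.9th.

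Members lower in the order included IAA1 and IAA19, which stood near the middle of all tested genes at the 44th and 41.1st percentile, whereas IAA2, also auxin-induced, was among the highest. IAA1 was at 7.99 ± 1.1 CPM per kb in wild type and IAA19 (MSG2), which acts in tropic growth, at 7.12 ± 0.554. IAA5 was at 0.689 ± 0.364, IAA29 at 0.391 ± 0.033 and IAA6 at 0.357 ± 0.00292. IAA6 rested on 16, 8 and 6 counts in WT 1, 2 and 3, so its small SD understates the counting error. Repressors known from root patterning and several others ranged from 5.25 to 36.6. IAA13 was at 36.6 ± 2.95 and IAA12 (BODENLOS), which blocks embryonic root formation when stabilised, at 13.6 ± 1.08. IAA3 (SHY2), which acts at the root meristem boundary, was at 12.9 ± 0.916, and IAA14 (SOLITARY-ROOT), which blocks lateral root initiation when stabilised, at 5.25 ± 0.101. IAA18 was at 17.1 ± 0.653, IAA7 (AXR2) at 22.6 ± 1.59 and IAA11 at 8.47 ± 0.633. The gene models of IAA3 and IAA13 share 640 and 1176 bases, introns included, with genes on the opposite strand. The assignment of reads in shared exon bases is uncertain, as the sources used here do not state whether counting used strand.

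Close relatives differed in level. IAA1 and IAA2, which share 75.7% of protein residues, stood at 7.99 and 85.6 CPM per kb in wild type. IAA3 and IAA4 (74.5% identical) stood at 12.9 and 51.6, IAA14 and IAA7 (80.7%) at 5.25 and 22.6, and IAA8 and IAA9 (57.9%) at 65.4 and 220. In each of these 4 pairs the wild-type libraries of both genes did not overlap. The longest run of identical bases shared with another member of the family was 13 to 52 per member, the longest being between IAA20 and IAA30.

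The Aux/IAA genes without the degron core were low. Together the 7 summed to 12.6 ± 2.38 CPM per kb in wild type and 12 ± 1.26 in myb68 myb84, which was 0.987% to 1.32% of the family's sum over the 6 libraries. IAA10 was the highest of them at 3.68 ± 0.956 CPM per kb in wild type, followed by IAA30 at 3.21 ± 0.636, IAA31 at 2.99 ± 1.25 and IAA34 at 1.62 ± 0.463. IAA33 was at 0.624 ± 0.0837, IAA20 at 0.301 ± 0.189 and IAA32 at 0.132 ± 0.103. IAA10, IAA32 and IAA34 share bases with neighbouring gene models (619, 826 and 156).

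Among the GH3 members, GH3.17, which conjugates auxin to glutamate, was the most abundant at 38.0 ± 3.88 CPM per kb in wild type, and GH3.5 (WES1), which also acts on salicylic acid, was at 32.5 ± 2.42. Their wild-type libraries overlapped. GH3.6 (DFL1) was at 21.8 ± 2.31, GH3.3 at 3.63 ± 0.14 and GH3.1 at 0.704 ± 0.267, each below the gene before it in every wild-type library. GH3.5 and GH3.6 share 90.4% of protein residues and an identical run of 42 bases.

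**Figure D1:**
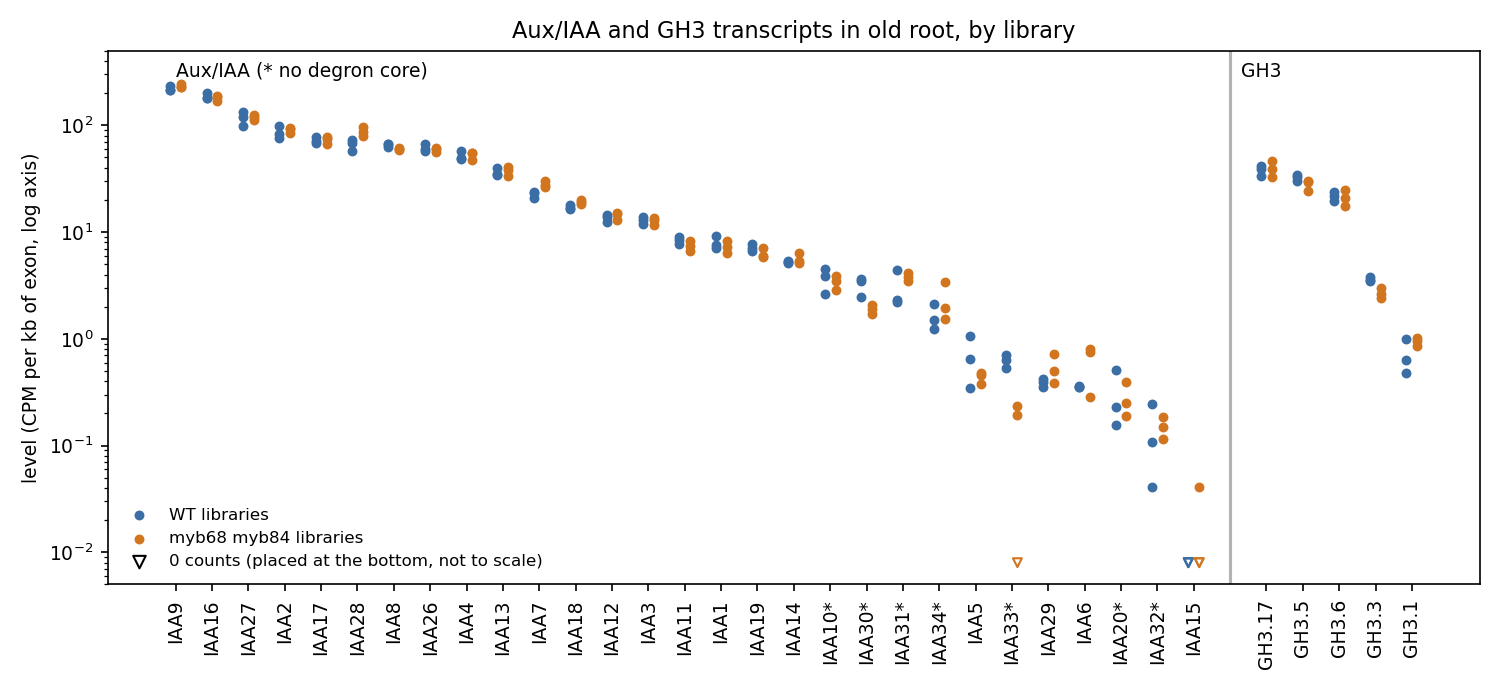
Level of each member in CPM per kb of exon (log axis) in the 3 WT and 3 myb68 myb84 libraries, ordered by the wild-type mean within each family; asterisks mark Aux/IAA genes without the degron core and open triangles libraries with 0 counts. The order runs from IAA9 at 220 CPM per kb to IAA15, with no counts in wild type, and the genotypes lie close together for most members.

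Between genotypes, 2 members rose in myb68 myb84 and none fell: the repressor genes IAA28 and IAA7. The other 30 of the 32 tested members did not pass an adjusted p of 0.05 in edgeR's quasi-likelihood test, and IAA15 and IAA20 had too few counts to test. The 2 calls are 6.25% of the tested members, against 8.3% of all tested genes called in either direction. Higher calls alone were 4.66% and lower calls 3.65% of all tested genes, so the share called among the members is near the background. At an unadjusted p under 0.05, 2 members were higher and 4 lower, against 22% of all tested genes in either direction. DESeq2 called IAA7 and IAA28 higher and 1 member, IAA30, lower, with 10.6% of all genes called. Limma-voom called IAA7 and IAA28 alone, with 8.95% of all genes called. The median log2 fold change of the tested members was 0.019, against -0.003 over all tested genes, and -0.002 against -0.024 with upper-quartile scaling. By sign, 18 members were positive and 14 negative.

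IAA28 (AT5G25890), which blocks lateral root formation when stabilised, lies at chromosome 5, 9033204 to 9035140, with no overlapping gene. It had 80.3, 101 and 95.1 CPM in WT 1, 2 and 3 and 134, 112 and 121 CPM in myb68 myb84 1, 2 and 3. All 3 mutant libraries lay above all wild-type libraries, with WT 1 the lowest and myb68 myb84 1 the highest. The log2 fold change was 0.41 ± 0.09 (SE; 95% interval 0.21 to 0.62), a level 1.33 times wild type, with an adjusted p of 0.0166 in edgeR. Its share of the summed Aux/IAA level per kb went from 6.16% ± 0.547 to 7.95% ± 0.877. With WT 1, myb68 myb84 1 or myb68 myb84 3 left out, IAA28 was no longer called (adjusted p = 0.0776, 0.0662 and 0.0513 in edgeR).

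IAA7 (AT3G23050), whose stabilised form makes roots auxin-resistant and agravitropic, lies at chromosome 3, 8194606 to 8197161, with no overlapping gene. It had 45.2, 44.5 and 39.6 CPM in WT 1, 2 and 3 and 56.8, 53.3 and 50.1 CPM in myb68 myb84 1, 2 and 3. The groups did not overlap, as was so for 7 of the 32 tested members and for 27.2% of all tested genes. The log2 fold change was 0.31 ± 0.08 (SE; 95% interval 0.14 to 0.48), or 1.24 times wild type, with an adjusted p of 0.0306 in edgeR. IAA7 was no longer called without WT 1 or WT 3 (adjusted p = 0.059 and 0.0821 in edgeR), nor without mutant library 1 or 2 (0.112 and 0.0891). In bulk roots, a change in the number of cells that express a gene and a change in RNA per cell cannot be told apart.

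The most abundant repressors did not pass, with intervals that include 0. IAA9 had 456, 501 and 455 CPM in WT 1, 2 and 3 and 491, 487 and 519 CPM in myb68 myb84 1, 2 and 3, and these ranges overlap. Its log2 fold change was 0.08 with a 95% interval of -0.08 to 0.25. IAA16 had 343 to 412 CPM over the 6 libraries and a log2 fold change of -0.06 (interval -0.23 to 0.12). IAA27 was at 0.01 (-0.2 to 0.23) and IAA2 at 0.08 (-0.12 to 0.27). IAA17 had 88.4 to 102 CPM and an interval of -0.16 to 0.17 around 0. The summed Aux/IAA level was 1070 ± 77.8 CPM per kb in wild type and 1110 ± 23.6 in the mutant, and the libraries of the genotypes overlap.

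Repressors of lateral root and meristem control other than IAA28 and IAA7 did not pass. IAA14 was at 0.09 on the log2 scale (interval -0.17 to 0.35), IAA3 at 0.00 (-0.23 to 0.22), IAA12 at 0.08 (-0.13 to 0.3) and IAA18 at 0.17 (0.00 to 0.33, adjusted p = 0.228 in edgeR). IAA18 had 29.5 to 31.8 CPM in wild type and 32.7 to 36.1 CPM in the mutant, without overlap. IAA8 was at -0.13 (-0.27 to 0.02), with mutant libraries of 120 to 126 CPM all below the wild-type libraries of 129 to 138 CPM. IAA4, IAA13, IAA26 and IAA11 were at 0.04, 0.03, -0.04 and -0.18. IAA1, IAA19, IAA5, IAA6 and IAA29 did not pass either. IAA1 was at -0.12 (-0.45 to 0.22) and IAA19 at -0.16 (-0.47 to 0.15). IAA5 (-0.58), IAA6 (0.77) and IAA29 (0.46) had 30 to 90 counts per genotype, and their intervals each span more than 1 log2 unit and include 0.

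Among the members without the degron core, IAA30 and IAA33 had lower values in every mutant library and did not pass. Libraries did not overlap for these 2 of the 6 tested, against 27.2% of all tested genes. IAA30 (AT3G62100), at chromosome 3, 22995686 to 22996809, had 2.47, 3.65 and 3.45 CPM in WT 1, 2 and 3 and 1.69, 2.06 and 1.89 CPM in myb68 myb84 1, 2 and 3. Its log2 fold change was -0.75 ± 0.23 (SE; 95% interval -1.25 to -0.24), with adjusted p = 0.0691 in edgeR, 0.0437 in DESeq2 and 0.099 in limma-voom. IAA33 (AT5G57420), at chromosome 5, 23269914 to 23271092, summed to 47 wild-type and 16 mutant counts. Per library it had 0.483, 0.533 and 0.406 CPM in WT 1, 2 and 3 and 0.147, 0 and 0.178 CPM in myb68 myb84 1, 2 and 3, with a log2 difference of -1.97 ± 0.67 (SE) and an adjusted p of 0.0967 in edgeR. IAA10 (-0.14), IAA31 (0.36), IAA32 (0.30) and IAA34 (0.49) had overlapping libraries and intervals that include 0. IAA32 rested on 20 wild-type and 35 mutant counts.

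Of the GH3 members none passed, and GH3.3 stood apart by library. GH3.3 (AT2G23170), at chromosome 2, 9863855 to 9866562, had 7.61, 7.46 and 8.03 CPM in WT 1, 2 and 3 and 5.52, 5.05 and 6.29 CPM in myb68 myb84 1, 2 and 3, so every mutant library was below every wild-type library. Its log2 fold change was -0.44 ± 0.14 (SE; 95% interval -0.75 to -0.14), with adjusted p = 0.0721 in edgeR, 0.0624 in DESeq2 and 0.0755 in limma-voom. GH3.5 had 70.4 to 81.6 CPM in wild type and 56.7 to 71.6 CPM in the mutant, ranges that overlap, with a log2 fold change of -0.22 (-0.42 to -0.02) and an adjusted p of 0.176 in edgeR. These were the 2 of the 5 GH3 members with an unadjusted p under 0.05, both lower. The share over all tested genes was 22% in either direction. Libraries did not overlap for 1 of the 5 GH3 members, against 27.2% of all tested genes. GH3.17, GH3.6 and GH3.1 were at 0.05, -0.06 and 0.45 (intervals -0.21 to 0.31, -0.33 to 0.21 and -0.17 to 1.08).

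**Figure D2:**
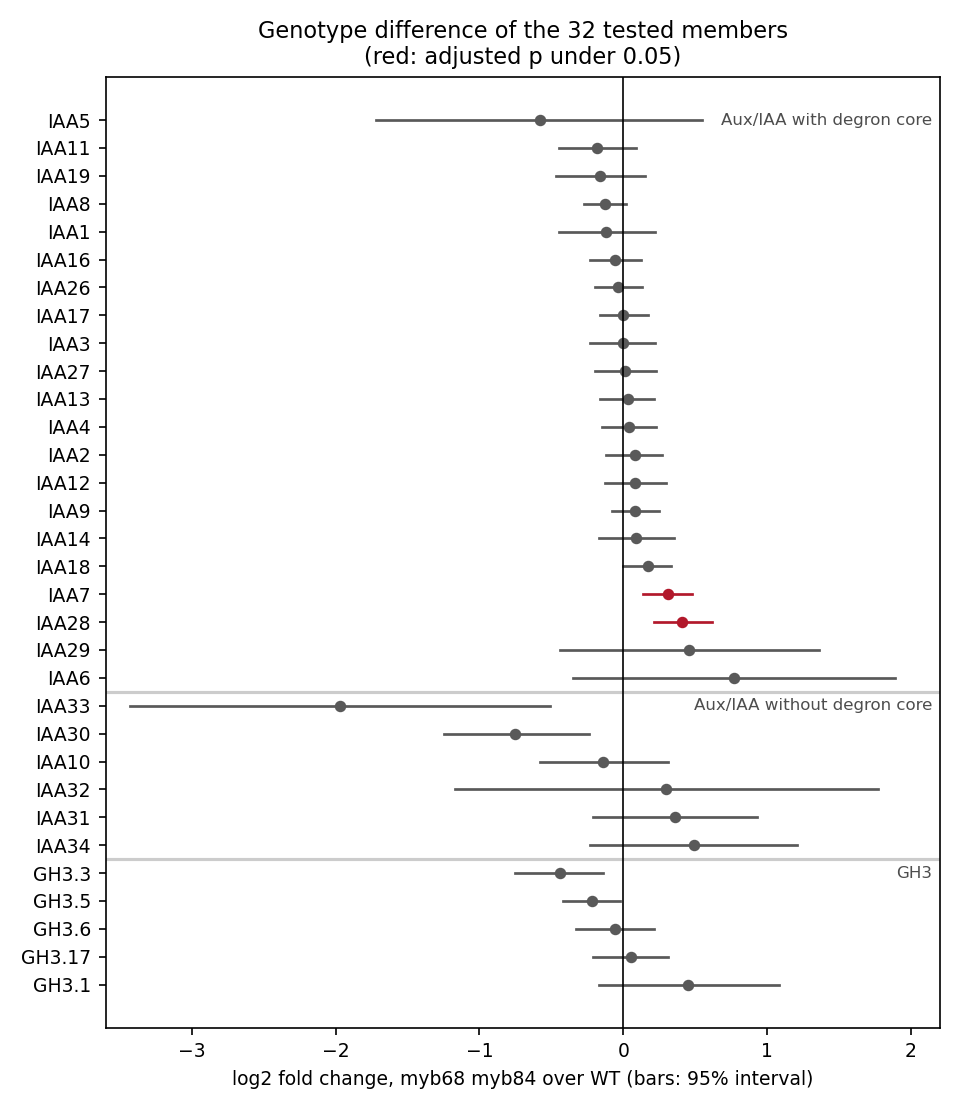
Log2 fold change of the 32 tested members, myb68 myb84 over WT, with 95% intervals from edgeR, grouped by degron core and family and coloured red where the adjusted p was under 0.05. IAA28 (0.41) and IAA7 (0.31) are the 2 coloured members, and the low-count genes IAA33 (-3.43 to -0.51) and IAA32 (-1.17 to 1.77) have the widest intervals.

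**Figure D3:**
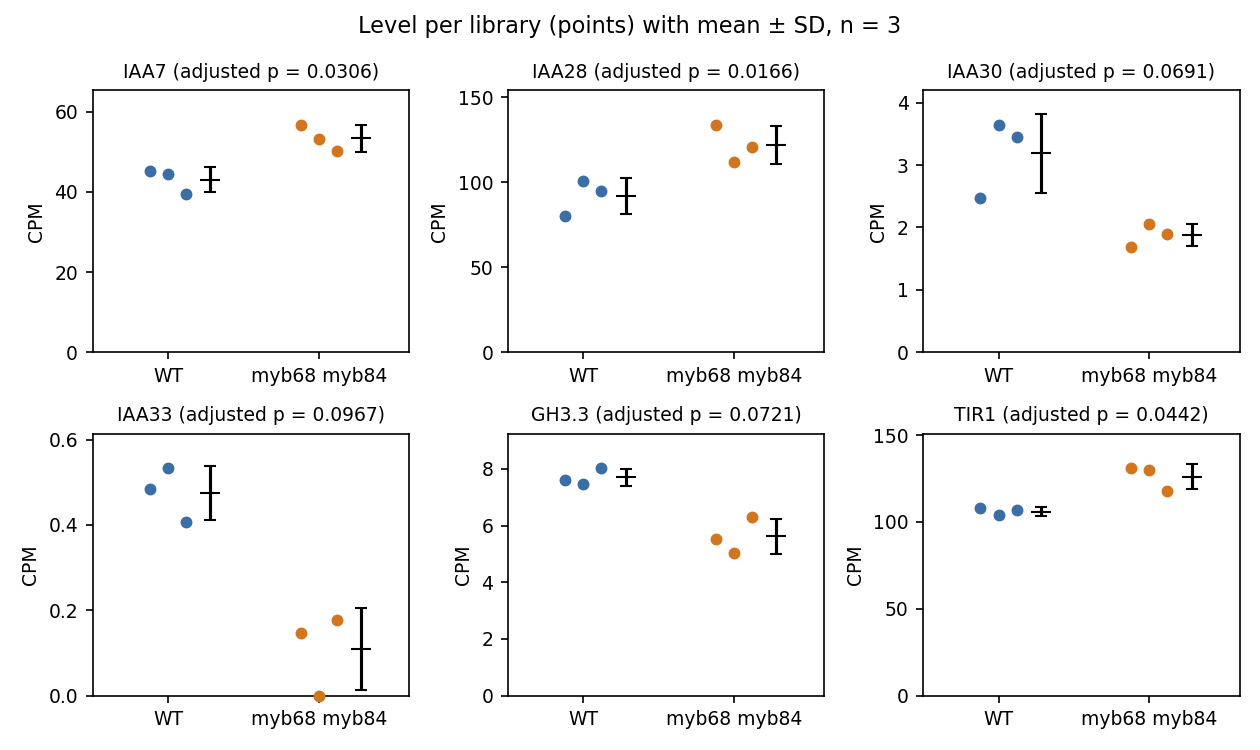
CPM in each library, with mean ± SD (n = 3), of the called members IAA7 and IAA28, of IAA30, IAA33 and GH3.3 and of the receptor gene TIR1. IAA30, IAA33 and GH3.3, all lower in the mutant, did not overlap between genotypes and were not called. The same held for IAA8, lower, and IAA18, higher, which are not drawn. Mutant libraries of IAA28 lie at 112 to 134 CPM against 80.3 to 101 in wild type, and those of GH3.3 at 5.05 to 6.29 against 7.46 to 8.03.

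The upstream sequence of the members was searched for the auxin response elements TGTCTC and TGTCGG, which ARFs bind, on both strands of the 250 bases before each annotated gene start (RefSeq, TAIR10.1). The words differ in their last letters, so a match counts for 1 of them, and a window holding both is counted under each and once in the combined count. TGTCTC was found at 11 of the 34 members and in 10.9% of 27443 protein-coding genes' windows, and TGTCGG at 6 members and in 4.16%. At least 1 of them was found at 15 members, 13 Aux/IAA and 2 GH3 genes, and in 14.7% of all windows. IAA19 held the most TGTCTC matches, and GH3.3 is shown as an example of a GH3 gene with a match. IAA28, the member with the smallest adjusted p, has neither word in this window and is shown beside them. Capitals mark the matches on either strand.
IAA19 (chr3:5263751-5264000, plus strand): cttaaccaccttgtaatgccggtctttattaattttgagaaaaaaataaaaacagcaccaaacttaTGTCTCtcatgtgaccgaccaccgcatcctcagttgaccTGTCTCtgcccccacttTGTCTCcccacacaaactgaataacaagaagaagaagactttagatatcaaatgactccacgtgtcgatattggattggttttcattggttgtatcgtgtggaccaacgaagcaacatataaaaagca
GH3.3 (chr2:9866563-9866812, minus strand): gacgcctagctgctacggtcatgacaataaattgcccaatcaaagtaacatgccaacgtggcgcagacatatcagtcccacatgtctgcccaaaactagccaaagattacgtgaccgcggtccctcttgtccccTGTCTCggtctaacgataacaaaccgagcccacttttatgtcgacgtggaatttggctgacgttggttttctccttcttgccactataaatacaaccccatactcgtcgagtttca
IAA28 (chr5:9032954-9033203, plus strand): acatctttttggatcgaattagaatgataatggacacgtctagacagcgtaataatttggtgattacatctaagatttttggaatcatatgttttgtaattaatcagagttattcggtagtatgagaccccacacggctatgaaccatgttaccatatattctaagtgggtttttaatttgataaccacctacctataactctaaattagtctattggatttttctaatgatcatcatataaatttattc
The 3 matches of IAA19 begin 184, 145 and 128 bases before the start, and that of GH3.3 begins at 116. A match here is a description of the letters and not a measured binding site. IAA7, the other called member, has neither word in its window.

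In the other lists of the auxin pathway 7 genes were called, and the shares given for each list stand beside 8.3% of all tested genes. Of the 6 receptor genes, TIR1 rose and 5 did not pass (16.7% called). TIR1 had 108, 104 and 107 CPM in WT 1, 2 and 3 and 131, 130 and 118 CPM in myb68 myb84 1, 2 and 3, a log2 fold change of 0.25 ± 0.07 (SE) with an adjusted p of 0.0442 in edgeR. That call ended with upper-quartile scaling (adjusted p = 0.0648 in edgeR) and when any 1 library was left out (0.0562 to 0.151). AFB3 was also at 0.25 (adjusted p = 0.0739 in edgeR), and AFB2, AFB5, AFB4 and AFB1 were at 0.12, 0.05, 0.03 and -0.01.

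Of 22 ARF genes 16 were tested, 1 fell and 15 did not pass (6.25% called). ARF20 had 9.11, 7.57 and 9.75 CPM in WT 1, 2 and 3 and 3.58, 4.15 and 4.12 CPM in myb68 myb84 1, 2 and 3. Its log2 fold change was -1.16 ± 0.15 (SE; adjusted p = 0.000524 in edgeR), and it was called with each library left out. It belongs to a group of closely related ARF genes on chromosome 1, so the assignment of its reads is uncertain. DESeq2 also called 1 ARF gene higher, ARF11 (0.43, adjusted p = 0.0517 in edgeR and 0.0428 in DESeq2), named after its values were seen. None of the 5 TOPLESS family corepressor genes passed in edgeR, DESeq2 or limma-voom, and none had an unadjusted p under 0.05. TPL and TPR4, the most abundant, were at 0.14 and 0.09.

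On the supply side, none of 7 tested synthesis genes was called by edgeR or limma-voom. At an unadjusted p under 0.05, 1 was lower and 0 were higher. This was YUC3, named after its values were seen, at 6.95 ± 1.51 CPM in wild type and 4.71 ± 0.389 in the mutant (log2 -0.57, adjusted p = 0.0671 in edgeR and 0.04 in DESeq2). YUC6 and YUC9, flavin monooxygenases of auxin synthesis and the most abundant here, were at -0.07 and 0.02. Of 9 tested genes of the list for inactivation and conjugate hydrolysis, 2 fell and 7 did not pass (22.2% called). The neighbouring genes AT1G14130 and AT1G14120, annotated as 2-oxoglutarate and Fe(II)-dependent oxygenases, both fell. AT1G14130 was at 41.8 ± 2.1 CPM in wild type and 28.5 ± 4.95 in the mutant (log2 -0.55, adjusted p = 0.0086 in edgeR). AT1G14120 was at 293 ± 44.3 and 221 ± 19.6 CPM (log2 -0.40, adjusted p = 0.038 in edgeR), and leaving out WT 2, WT 3, myb68 myb84 1 or myb68 myb84 2 ended its call (adjusted p up to 0.143 in edgeR).

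None of the other 11 tested GH3 genes was called by edgeR or limma-voom. At an unadjusted p under 0.05, 3 were higher (GH3.10, AT5G13360 and AT5G13370, at 0.23, 0.32 and 0.23) and 2 lower (GH3.2 and AT1G48670, at -0.45 and -0.75). JAR1, which conjugates jasmonate, was at 0.00. GH3.2 (BRU6), 1 of 3 group II GH3 genes that are not among the members, was at 31.9 ± 7.35 CPM in wild type and 23.5 ± 3.93 in the mutant (adjusted p = 0.171 in edgeR and 0.0447 in DESeq2). Of 7 tested auxin-induced genes outside these families none was called by edgeR, DESeq2 or limma-voom, and 1, LBD17, was higher at an unadjusted p under 0.05 (0.80, adjusted p = 0.208 in edgeR). HAT2, a homeobox gene, and PID, a kinase that acts on auxin carriers, were at -0.04 and 0.32. Among 35 tested of 78 SAUR genes, small auxin-induced transcripts, 1 rose and 2 fell (8.57% called). AT1G56150, chosen once its values were known, rested on 12 wild-type and 71 mutant counts (4.45 times wild type, adjusted p = 0.0553 in edgeR, 0.0446 in DESeq2 and 0.0332 in limma-voom). AT4G34810 was at 6.4 ± 0.247 CPM in wild type and 3.45 ± 0.157 in the mutant (log2 -0.89, adjusted p = 0.00309 in edgeR) and was called with each library left out. AT5G10990 (-1.32, adjusted p = 0.0499 in edgeR) and AT1G72430 (0.30, adjusted p = 0.0409 in edgeR) were no longer called when any 1 library was left out, except that AT1G72430 was called without WT 1. The AT1G72430 call also ended with upper-quartile scaling (adjusted p = 0.055 in edgeR), and that of AT5G10990 in limma-voom (0.0682).

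**Figure D4:**
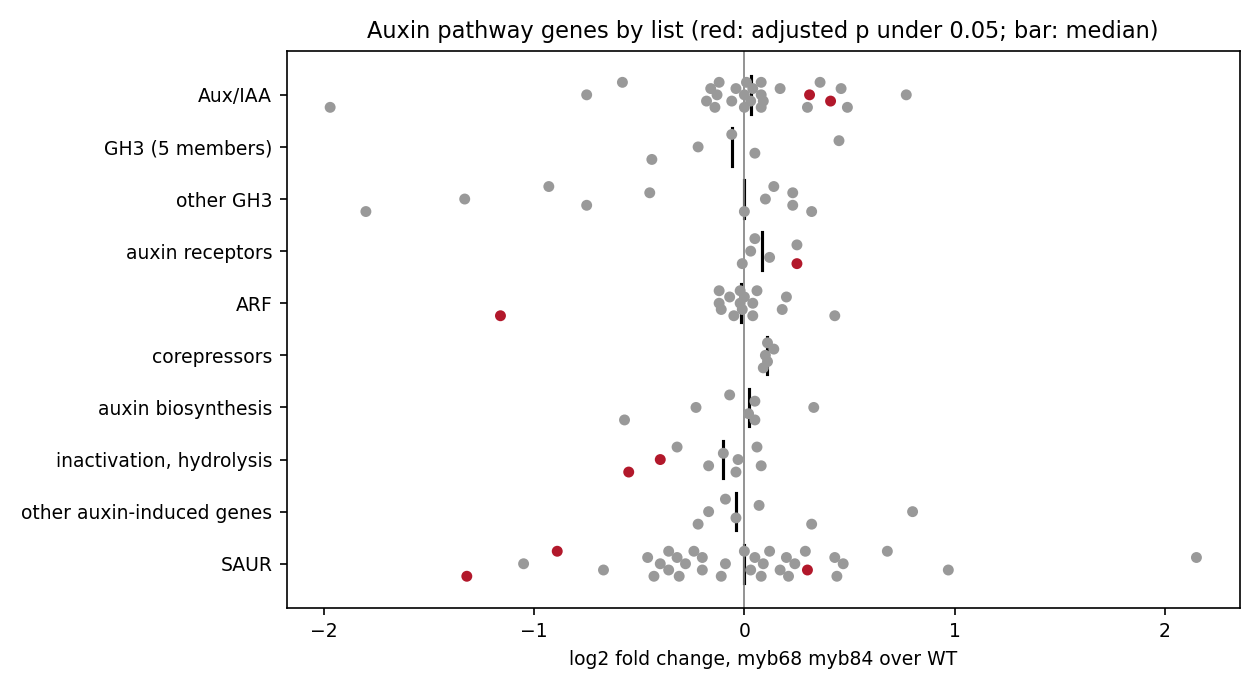
Log2 fold change, myb68 myb84 over WT, of each tested gene by list, with a bar at the list's median and red points for an adjusted p under 0.05. Most points lie near 0, and 9 of all genes drawn are red, 2 of them in the Aux/IAA family.

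Markers of cell types and of leaf were read beside these results. Of 6 cork (phellem) markers edgeR called 4 lower, and their summed level was 562 to 594 CPM in wild type and 399 to 458 in the mutant. Of 4 leaf photosynthesis markers 2 were higher, with sums of 1450 to 2390 CPM in wild type and 2700 to 3100 in the mutant, and 2 of 3 root hair markers were higher (48.6 to 60.2 against 68.9 to 81.7 CPM). Sums overlapped between genotypes for the cambium (147 to 152 against 141 to 161 CPM), xylem, phloem and root tip lists, none of whose markers was called, and no marker of any list was at 0. The part of these shifts in the values of IAA28, IAA7 and the other members was not tested.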

How the data were processed

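RNA-seq counts from 3 WT and 3 myb68 myb84 libraries were used, grouped and numbered by the sample titles. The deposited values are raw counts of reads per gene. HISAT, featureCounts, Trim Galore, DESeq2 and the TAIR10 build are listed, per the submitters' processing notes. The sources used here do not give their versions, the strand setting or the treatment of reads that match several places.

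Genotype was tested on all genes by the quasi-likelihood method of edgeR 4.0.16 under R 4.3.3 (TMM scaling, filterByExpr with a minimum count of 10, robust dispersion, Benjamini-Hochberg adjustment over 20941 genes, called at an adjusted p under 0.05). The p-values measure the spread between pools of plants. CPM uses the same scaling, and levels per kb divide it by the union of annotated exons. DESeq2 1.42.0 and limma-voom (limma 3.58.1), other scalings and filters, a replicate block, removal of organelle genes and each library left out in turn were alternatives. Simulated counts with known changes were used to check the fit.

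Gene models, symbols and sequences came from RefSeq TAIR10.1, in which all 34 members were found. Counting limits cover counting error only and take counts as independent. All members, the 6 receptors and both MYB genes are named. From each other list, the called genes with the smallest adjusted p or, without calls, the 2 most abundant are named, and genes named beyond this to resolve a small count (ARF11, LBD17, YUC3, AT1G56150 and the GH3 genes other than JAR1 and GH3.2) were chosen after their values were seen. Members and lists were chosen with earlier results of these data known. A sequence upstream of 1 member is not reported here.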

Additional observations from a re-analysis of the deposited data

How the results depend on the processing

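Over all genes the number of calls was 1739, and 1024 to 1670 with each library left out. Members called numbered 2, all higher, in each alternative in scaling, filter and test except DESeq2, which called 3, adding IAA30 as 1 lower. With each library left out, 0 to 2 members were called, all higher. They were IAA7 and IAA28 without WT 2, IAA28 without WT 3 or myb68 myb84 2, IAA7 without myb68 myb84 3 and neither without WT 1 or myb68 myb84 1. Other auxin pathway genes called numbered 7, 11 in DESeq2, 5 with upper-quartile scaling, which ended the calls of TIR1 and AT1G72430, and 3 to 5 with each library left out. At 0.5 and 2 CPM, 27 and 25 members were expressed in at least 1 genotype. At 2 CPM the sets differed, as IAA30 passed in WT alone and IAA31 in myb68 myb84 alone. Small differences changed sign as follows, none of them called: IAA3 was 0.01 in limma-voom, and IAA17 and IAA27 were -0.02 and -0.01 with upper-quartile scaling. With each library left out in turn, 11 uncalled members turned sign. The lowest and highest log2 values were -0.06 and 0.06 for IAA3, -0.02 and 0.13 for IAA4, -0.31 and 0.05 for IAA10, -0.04 and 0.1 for IAA13, -0.01 and 0.15 for IAA14, -0.04 and 0.06 for IAA17, -0.08 and 0.03 for IAA26, -0.09 and 0.12 for IAA27, -0.3 and 1.19 for IAA32, -0.2 and 0.06 for GH3.6 and -0.09 and 0.16 for GH3.17.

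The replicate numbers showed no clear pairing of the libraries. Deviations of same-numbered libraries correlated at -0.006, 0.024 and 0.084, and those of other pairs at -0.065 to 0.034. Not every library correlated best with its own number. Whether same-numbered libraries shared a batch was not tested. With the replicate block 2069 genes were called, against 1739 without it, and the same 2 members. Of the other results the block ended the call of AT5G10990 (adjusted p = 0.0599 in edgeR) and raised the SAUR genes called higher from 1 to 2. Depth limits the low members: IAA5, IAA6, IAA29, IAA32 and IAA33, with 16 to 90 counts per genotype, have intervals wider than 1 log2 unit. So do the expressed members IAA30, IAA31, IAA34 and GH3.1, with 146 to 434 counts per genotype.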
